A study of Mus musculus with 6 samples.

Results

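The immunity-related GTPases described here are 8 mouse genes: Irgm1, Irgm2, Igtp, Iigp1, Ifi47, Tgtp1, Tgtp2 and Gvin1. They were taken by name, and all 8 were found among the 25044 genes counted in the study. RNA was sequenced from peritoneal macrophages of C57BL/6 wild type mice, 8 weeks of age, collected 3 days after thioglycollate broth, an irritant that draws macrophages into the cavity. Cells that stuck to the plate within 1 h were cultured for a further 24 h. They then received DMSO (vehicle, 3 libraries) or 100 nM trametinib (3 libraries), which blocks the kinases MEK1 and MEK2 upstream of ERK, for 2 h. Every culture, vehicle included, was then given LPS, a bacterial cell wall component, at 100 ng/ml for 12 h. No culture without LPS was analysed here, so the values compare trametinib with vehicle in LPS-treated cells and do not show what LPS induced. The cells came from 3 mice and the labels do not say which mouse gave which library, so p-values measure the spread between these libraries.

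Immunity-related GTPases are proteins of infected cells that are made after exposure to interferons. In mouse macrophages LPS itself leads to interferon beta, which acts back on the cells through JAK kinases, STAT factors and interferon regulatory factors (IRFs). The family has a regulatory branch (Irgm1, Irgm2 and Igtp, the last also called Irgm3), whose proteins sit on the cell's own membranes. It also has an effector branch (Iigp1, Tgtp1, Tgtp2 and Ifi47), whose proteins gather on the vacuoles that hold parasites such as Toxoplasma and some bacteria, and help to break them. Gvin1 belongs to a separate family of very large inducible GTPases that share the interferon response but not the size or the known vacuole function.

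The promoters of several of these genes hold the same short block of DNA, which is shown because it carries the letters read by the interferon pathway. RefSeq windows (GRCm38.p6) from 250 bases before to 50 bases after the start were found for 6 members: Irgm1, Irgm2, Igtp, Ifi47, Tgtp1 and Tgtp2. Both strands were searched for GAAA, any 2 bases, GAAA, the core of the interferon-stimulated response element bound by IRFs, and for TTCNNNGAA, the gamma-activated site bound by STAT factors. In the stretches below, read 5′ to 3′ on the strand of the gene, capitals mark matches to these letters:
Igtp: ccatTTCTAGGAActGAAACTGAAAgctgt
Irgm2: ccatTTCCAGGAActGAAACTGAAAgctgt
Tgtp1: ccatTTCCAGGAAtcGAAACTGAAAcctac
Tgtp2: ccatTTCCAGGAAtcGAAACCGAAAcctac
Gm12185: ccatTTCCAGGAAtaGAAAGTGAAAcctac
Irgm1: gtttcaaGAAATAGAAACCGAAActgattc

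In the first 5 of these stretches a gamma-activated site was followed, after any 2 bases, by the response element core. Gm12185 is a relative in the same gene cluster and is described with the others further on. The stretches lie at chr11:58199507-58199536 on the plus strand for Igtp and chr11:58214898-58214927 on the plus strand for Irgm2. Those of Tgtp1, Tgtp2 and Gm12185 lie on the minus strand at chr11:48992309-48992338, chr11:49064268-49064297 and chr11:48927243-48927272. Igtp and Irgm2 were identical at 29 of 30 bases, and so were Tgtp1 and Tgtp2, while Igtp and Tgtp2 shared 23 of 30. None of these 5 stretches overlapped an annotated exon. Those of Igtp and Tgtp2 lay before the gene model, and those of Irgm2, Tgtp1 and Gm12185 lay in introns of the longer GENCODE models.

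Irgm1 had no gamma-activated letters in its window, but held the response element core at 2 overlapping positions on the strand of the gene (chr11:48871428-48871457, minus strand, inside a GENCODE exon of Irgm1). Ifi47 had neither motif in its window. Of the 10 relatives analysed further on, 5 had a window. Gm12185 and 9930111J21Rik1 held the response element core, and only Gm12185 the gamma-activated letters. Gm5431, Irgq and 9930111J21Rik2 held neither. The response element core occurred in 3.44% of all 32851 windows and TTCNNNGAA in 8.30%, against 5 and 4 of the 6 member windows. The joined form (TTCNNNGAA, any 2 bases, then the core), written after the member sequences had been seen, occurred in 5 windows (0.0152%), those of Igtp, Irgm2, Tgtp1, Tgtp2 and Gm12185. These near-copies are not independent examples, and a match of letters does not show binding.

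With trametinib, 5 of the 8 genes rose (Irgm1, Irgm2, Igtp, Iigp1 and Tgtp1), none fell, and 3 did not pass the test (Ifi47, Tgtp2 and Gvin1). The threshold was an adjusted p of 0.05 in edgeR's quasi-likelihood test, with adjustment over all 11286 genes tested. In that test 15.8% of all genes rose, 18.4% fell and 34.3% changed in either direction. All 8 members were tested. Their median log2 fold change was 0.42, against −0.01 over all genes tested. The groups did not overlap in 6 of the 8 genes, where 23.4% of all genes had every trametinib library above every vehicle library and 49.3% did not overlap in either direction. In bulk RNA, a change in the number of cells that make a transcript and a change in the amount per cell cannot be told apart.

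The replicate numbers are shared between the groups and paired the libraries in the data. Within each number, all 8 members were higher with trametinib in 3 of 3 pairs, as were 34.5% of all genes. With the replicate number as a block in the fit, 7 of 8 members rose, where 20.5% of all genes rose. Ifi47 and Tgtp2 passed in that fit, with adjusted p 0.0118 and 0.0286. Together the 8 genes took 0.289%, 0.299% and 0.272% of all counts in vehicle replicates 1 to 3. They took 0.380%, 0.410% and 0.334% in trametinib replicates 1 to 3. Every trametinib library was above every vehicle library in this share.

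**Figure D1:**
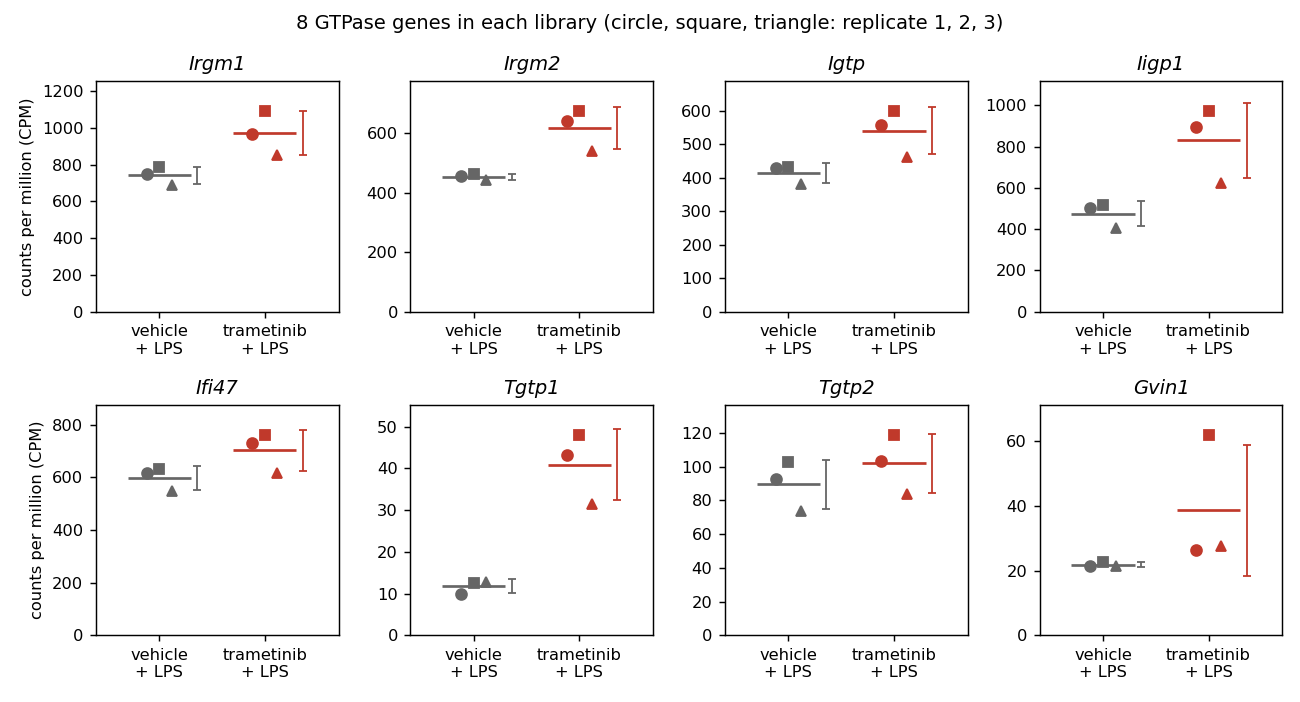
CPM, counts scaled to library size (vertical axes, linear from 0), of the 8 genes in each library, with vehicle + LPS in grey and trametinib + LPS in red; symbols give the replicate number, horizontal lines the mean and bars the SD (n = 3). Tgtp1 separates widely, Iigp1 does not overlap between groups, Ifi47 and Tgtp2 do, and 1 trametinib library of Gvin1 stands at 61.9 CPM.

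Among the regulatory genes, Irgm1 guards the cell's membranes and controls autophagy and effector loading. Its levels in vehicle replicates 1 to 3 were 747, 785 and 691 CPM (counts scaled to library size with the factors of edgeR). In trametinib replicates 1 to 3 they were 967, 1090 and 853 CPM. All 3 trametinib libraries were above all 3 vehicle libraries. The mean went from 741 ± 47.2 to 970.4 ± 119 CPM (SD, n = 3 per group), a log2 fold change of 0.39 (SE 0.10, adjusted p 0.0173). Its adjusted p became 0.0553 when vehicle replicate 1 was removed, 0.0638 when trametinib replicate 1 was and 0.0644 when trametinib replicate 2 was.

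Irgm2, a regulator that also restrains responses to bacterial LPS inside the cell, stood at 456, 464 and 444 CPM in vehicle replicates 1 to 3. Trametinib replicates 1 to 3 held 642, 675 and 540 CPM. The vehicle libraries lay close together and all below the trametinib libraries. The log2 fold change was 0.44 (SE 0.09, adjusted p 0.00697), and the call was kept under every alternative run, with an adjusted p of at most 0.0391.

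Igtp, the neighbour of Irgm2 and the regulator found on the endoplasmic reticulum and lipid droplets, stood at 428, 432 and 380 CPM with vehicle. With trametinib it stood at 558, 599 and 463 CPM. The groups did not overlap, and trametinib replicate 3 lay nearest to the vehicle libraries. The log2 fold change was 0.39 (SE 0.11, adjusted p 0.0230). Its adjusted p became 0.0558 when vehicle replicate 1 was removed, 0.0888 when trametinib replicate 1 was and 0.0811 when trametinib replicate 2 was. The Igtp and Irgm2 gene models overlap on the plus strand by 162 exonic bases (8.01% of Igtp). With their counts summed as 1 gene, an alternative chosen after the data were seen, the log2 fold change was 0.42 (adjusted p 0.0114).

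Iigp1, also called Irga6, is the effector whose loading on the Toxoplasma vacuole is best studied. It stood at 505, 518 and 405 CPM in vehicle replicates 1 to 3 and at 896, 973 and 626 CPM in trametinib replicates 1 to 3. Replicate 3 was the lowest library of each group, and the groups did not overlap. The mean went from 476 ± 62.1 to 831 ± 182 CPM (SD, n = 3), a log2 fold change of 0.80 (SE 0.17, adjusted p 0.0113). Within same-number pairs the trametinib library was 1.77, 1.88 and 1.55 times the vehicle library. The call was kept in every alternative run, with an adjusted p of at most 0.0462. Of the counts on the 8 genes, Iigp1 made up 16.9 ± 1.03% with vehicle and 21.5 ± 1.86% with trametinib (SD, n = 3). In this share too, the groups did not overlap.

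Tgtp1 and Tgtp2, near-copies that encode the effector also called Irgb6, had unlike values. Tgtp1 had 175, 226 and 237 counts in vehicle replicates 1 to 3 (9.81, 12.6 and 12.8 CPM). It had 731, 894 and 564 counts in trametinib replicates 1 to 3 (43.2, 48.0 and 31.4 CPM). The lowest trametinib library was 2.45 times the highest vehicle library. The log2 fold change of 1.80 (SE 0.18, adjusted p 0.000502) was the highest of the 8 genes, and the adjusted p was at most 0.00497 under the alternatives that kept Tgtp1 and Tgtp2 as separate genes.

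Tgtp2 had 1648, 1840 and 1370 counts with vehicle (92.4, 103 and 74.0 CPM) and 1750, 2212 and 1503 with trametinib (103, 119 and 83.7 CPM). These groups overlapped, and the log2 fold change was 0.19 (SE 0.16, adjusted p 0.402). In same-number pairs the trametinib library of Tgtp2 was 1.12, 1.16 and 1.13 times the vehicle library. Its log2 fold change was 0.06 after removal of vehicle replicate 3, 0.07 after removal of trametinib replicate 2 and 0.31 after removal of trametinib replicate 3.

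Reads of this pair are hard to assign. Of all 100-base windows in Tgtp1 transcripts, 70.3% were also present letter for letter in Tgtp2, and 76.8% of Tgtp2 windows were present in Tgtp1. How reads that fit both genes were counted is not given in the sources used here. Tgtp1 also shares 223 exonic bases (6.96% of its length) with Gm12185 on the same strand. Tgtp1 made up 9.60%, 10.9% and 14.7% of the pair's counts in vehicle replicates 1 to 3, and 29.5%, 28.8% and 27.3% in trametinib replicates 1 to 3. With the pair summed as 1 gene, the log2 fold change was 0.49 (SE 0.15, adjusted p 0.0423). The sum stood at 102, 115 and 86.8 CPM with vehicle and at 147, 167 and 115 CPM with trametinib, where trametinib replicate 3 (115.05) was just below vehicle replicate 2 (115.22).

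**Figure D2:**
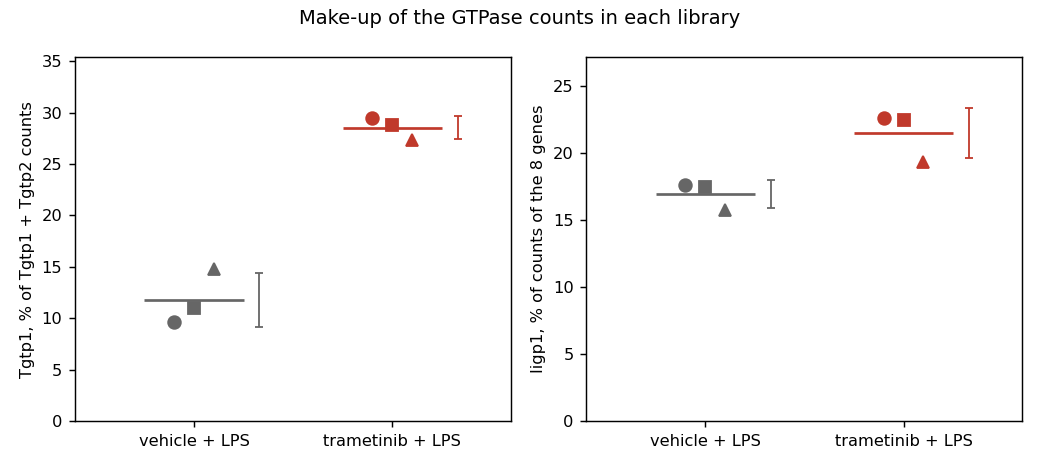
Share of counts in each library (vertical axes in percent, from 0): Tgtp1 within Tgtp1 plus Tgtp2 on the left, Iigp1 within the 8 genes on the right; symbols give replicates 1, 2 and 3 as circle, square and triangle, lines the mean and bars the SD (n = 3). Both shares are higher in all 3 trametinib libraries than in any vehicle library.

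Ifi47, also called Irgd, stood at 616, 631 and 547 CPM with vehicle and at 730, 762 and 616 CPM with trametinib. Trametinib replicate 3 lay below vehicle replicates 1 and 2, so the groups overlapped. The log2 fold change was 0.23 (SE 0.10, adjusted p 0.102), and it passed with the replicate block (0.0118) and without trametinib replicate 3 (0.0261). Ifi47 shares 111 exonic bases with the olfactory receptor gene model Olfr56 on the same strand, and Olfr56 rose by a log2 value of 0.59 (SE 0.08, adjusted p 0.00119). As a share of the counts of the 8 genes Ifi47 went from 21.3 ± 0.103% to 18.3 ± 0.701% (SD, n = 3), with no overlap between groups.

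Gvin1 had 382, 406 and 398 counts in vehicle replicates 1 to 3, and 448, 1153 and 495 in trametinib replicates 1 to 3. The trametinib mean rested on replicate 2, at 61.9 CPM beside 26.5 and 27.6 CPM in the other trametinib libraries, and vehicle libraries at 21.4 to 22.6 CPM. The log2 fold change was 0.82 (SE 0.36, adjusted p 0.137), and without trametinib replicate 2 it was 0.31 (adjusted p 0.0391). Gvin1 shares 96.7% of its 100-base windows with Gm4070, a second very large GTPase gene of the same cluster. With both summed the log2 fold change was 0.58 (SE 0.20, adjusted p 0.0702). Gm4070 itself had no such library: its counts were 463, 451 and 508 with vehicle and 530, 658 and 574 with trametinib. The ratio of Gvin1 to Gm4070 counts was 1.75 in trametinib replicate 2 and 0.783 to 0.900 in the other libraries.

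Trametinib replicate 2 was the highest trametinib library for all 8 members, and trametinib replicate 3 the lowest for 7. Vehicle replicate 2 was the highest vehicle library for 7 members and vehicle replicate 3 the lowest for 6. How many of all genes had this order was not counted, so it is not shown to be particular to the members. Trametinib replicate 2 was the deepest library, with 19648467 counts against 17453778 to 17819451 in the others. It held 1.76% of counts on mitochondrial genes, against 0.717% to 0.871%, and the part of this in the members' values was not tested. Without that library the log2 fold changes of Irgm1, Irgm2, Igtp, Iigp1 and Tgtp1 were 0.30, 0.38, 0.31, 0.68 and 1.67. Vehicle replicate 3, whose first principal component score (−16.2) was nearer to the trametinib libraries than those of vehicle replicates 1 and 2 (−39.3 and −38.1), left 5 members higher when it was removed, where 19.3% of all genes rose. Removal of vehicle replicate 1 or of trametinib replicate 1 left 3 members higher, where 9.89% and 9.33% of all genes rose. Removal of vehicle replicate 2 left 5 higher (10.2% of all genes). Without trametinib replicate 2, 4 members were higher (10.5% of all genes): Irgm2, Iigp1, Tgtp1 and Gvin1. There Irgm1 and Igtp lost the call, and Gvin1, which had not passed with all libraries, gained it. Without trametinib replicate 3, 6 members were higher (14.6% of all genes): the 5 that passed with all libraries, and Ifi47.

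Per kilobase of merged exon length, the order of levels with vehicle was Ifi47, Igtp, Irgm1, Irgm2, Iigp1, Tgtp2, Tgtp1 and Gvin1. Their mean levels in that order were 242, 204, 128, 123, 81.7, 30.5, 3.66 and 2.43 RPKM (CPM divided by that length). Of these neighbours Irgm1 and Irgm2 overlapped between libraries, and the other neighbours did not. With trametinib, Ifi47 (284 ± 31.1 RPKM) and Igtp (267 ± 34.5 RPKM) overlapped, as did Irgm2, Irgm1 and Iigp1 at 168 ± 19.1, 167 ± 20.4 and 143 ± 31.3 RPKM (SD, n = 3). For Tgtp1, Tgtp2 and Gvin1 the part of shared reads in these levels was not tested.

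The members lie in gene clusters with further GTPase genes that carry clone or predicted-gene names, and these relatives were read in the same test. Of 19 listed relatives 10 were analysed and 9 were tested. Of the 9 tested, 7 were called higher and none lower, where 15.8% of all genes rose and 18.4% fell. The median log2 fold change of the relatives was 0.45, against −0.01 for all genes tested. The tenth, Irgc1, a family gene known from testis, had 0 to 2 counts per library.

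On chromosome 18 (mm10, 60212080 to 60392634) the 4 genes Gm4951, Gm4841, F830016B08Rik and Iigp1 all rose, with log2 fold changes of 0.80 to 1.79. Over all genes tested, 15.8% rose and 18.4% fell. Gm4951 had 2215, 2254 and 2044 counts with vehicle and 4209, 4747 and 3083 with trametinib, a log2 fold change of 0.91 (SE 0.15, adjusted p 0.00318). Gm4841 had 126, 129 and 117 counts with vehicle and 506, 490 and 267 with trametinib (log2 fold change 1.79, SE 0.26, adjusted p 0.00282). F830016B08Rik had 206, 173 and 210 counts with vehicle and 484, 429 and 353 with trametinib (log2 fold change 1.13, SE 0.14, adjusted p 0.000802). None of these groups overlapped, where 23.4% of all genes had every trametinib library above every vehicle library. All 4 calls were kept under each alternative run. At most 0.255% of the 100-base windows of any of these 4 genes occurred in another gene. The other genes tested within 200 kb were Smim3, which rose (log2 fold change 0.58, adjusted p 0.000983), and Dctn4 and Rbm22, at 0.04 and −0.11 (adjusted p 0.672 and 0.231).

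On chromosome 11, the cluster from Irgm1 to Ifi47 (48861968 to 49096974) held 8 tested GTPase genes, of which 4 rose: Irgm1, Gm5431, Gm12185 and Tgtp1. None of the 8 fell, where 15.8% of all genes rose and 18.4% fell. Gm12185 stood at 22.2, 21.9 and 22.4 CPM with vehicle and at 37.6, 44.9 and 33.2 CPM with trametinib (log2 fold change 0.80, SE 0.11, adjusted p 0.00105). Gm5431 had 3066, 2940 and 3304 counts with vehicle and 3900, 4703 and 3901 with trametinib (log2 fold change 0.45, SE 0.08, adjusted p 0.00418). For both genes every trametinib library was above every vehicle library, as it was for 23.4% of all genes.

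In the same cluster the log2 fold change of 9930111J21Rik1 was 0.20, with an adjusted p of 0.315. 9930111J21Rik2 had 767, 639 and 2432 counts with vehicle and 940, 1074 and 981 with trametinib. Its vehicle replicate 3 stood far above the other 5 libraries. The log2 fold change was −0.32 (SE 0.56, adjusted p 0.695), and without vehicle replicate 3 it turned to 0.51 (adjusted p 0.00142). These 2 genes share 69.4% of the windows of 9930111J21Rik1. Igtp and Irgm2 form the second cluster of chromosome 11 (58199556 to 58222782). Of 7 other genes tested within 200 kb of it, none rose and 3 fell (Mrpl22, Gemin5 and Zfp672). Of 7 such neighbours of the first cluster, Mgat1 and Olfr56 rose and none fell. Beside both sets of neighbours, the shares over all genes were 15.8% higher and 18.4% lower.

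On chromosome 7, Gm4070 rose (log2 fold change 0.33, SE 0.08, adjusted p 0.0137). Its adjusted p became 0.0520 when vehicle replicate 1 was removed, 0.0583 when vehicle replicate 2 was and 0.0513 when trametinib replicate 2 was. Of 8 other genes tested within 200 kb of Gm4070 and Gvin1, none rose and 3 fell (Mrpl17, Rrp8 and Taf10). The shares over all genes were 15.8% higher and 18.4% lower. Irgq, a divergent family gene, rose with a log2 fold change of 0.40 (SE 0.09, adjusted p 0.0109). Its counts were 420, 427 and 508 with vehicle and 575, 645 and 541 with trametinib.

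**Figure D3:**
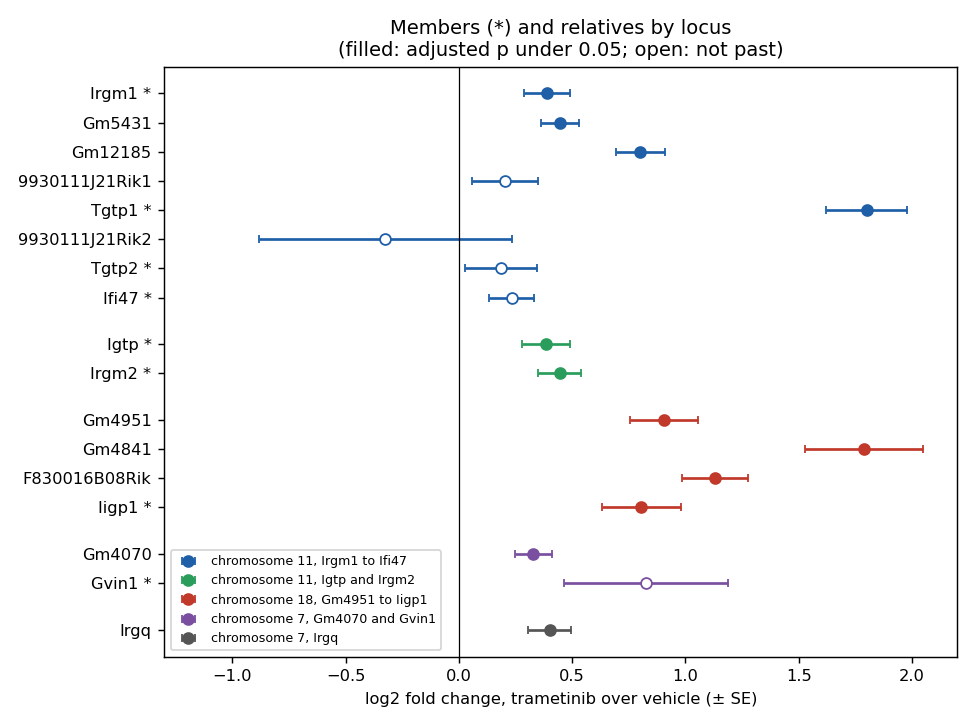
Log2 fold change of trametinib over vehicle (horizontal axis, with SE bars) for the 8 members, marked with an asterisk, and 9 relatives, grouped and coloured by locus; filled points passed at an adjusted p under 0.05. The 4 genes of the chromosome 18 cluster lie between 0.80 and 1.79, and 9930111J21Rik2, which is the lowest, has the widest bar.

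The guanylate-binding proteins and Mx proteins are other interferon-inducible GTPases, and the former act with the immunity-related GTPases on vacuoles. Of 13 tested, 11 rose, none fell, and Gbp2b and Mx2 did not pass, where 15.8% of all genes rose and 18.4% fell. The median log2 fold change was 0.45. Gbp4 rose from 210 ± 16.0 to 456 ± 61.2 CPM (SD, n = 3, adjusted p 0.000361). Gbp9 rose by a log2 value of 0.54 (SE 0.09, adjusted p 0.00232). Gbp10 rose by 1.71 (SE 0.24, adjusted p 0.00120), from 33, 25 and 29 counts with vehicle to 101, 114 and 66 with trametinib. The spans of the Gbp4 and Gbp9 genes overlap on chromosome 5, and the part of shared reads was not tested. Removal of vehicle replicate 1 or of trametinib replicate 1 left 7 risers, where 9.89% and 9.33% of all genes rose. With the replicate block Mx2 passed as well (adjusted p 0.128 without the block and 0.0274 with it).

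Among the genes of interferon ligands and receptors, those of the receptors moved in both directions. Their part in the members' values was not tested. Ifnb1, the gene of interferon beta, rose (log2 fold change 1.01, SE 0.27, adjusted p 0.0229). It had 44, 45 and 95 counts with vehicle and 112, 118 and 135 with trametinib. Its adjusted p became 0.0604 to 0.0722 when any 1 library other than vehicle replicate 3 was removed. Ifng, the gene of interferon gamma, had 1 count in vehicle replicate 1 and 0 in the other libraries, and Ifna4 had 0 in all. Ifngr1, the ligand-binding chain of the interferon gamma receptor, fell from 64.4 ± 6.95 to 32.2 ± 1.89 CPM (SD, n = 3, adjusted p 0.000280). Ifnar1, a chain of the type I interferon receptor, fell by a log2 value of 0.55 (SE 0.09, adjusted p 0.00186). Ifngr2, the second chain of the gamma receptor, rose by 0.31 (SE 0.07, adjusted p 0.0100). That adjusted p became 0.0517 on removal of vehicle replicate 1 and 0.0519 on removal of trametinib replicate 1. Ifnar2 was at 0.18 (adjusted p 0.0854, and 0.0358 with the replicate block). Of these 5 tested ligand and receptor genes, 2 rose and 2 fell, where 15.8% of all genes rose and 18.4% fell. No gene of this list rose when vehicle replicate 1 or trametinib replicate 1 was removed, where 9.89% and 9.33% of all genes rose.

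Of 6 kinase and STAT genes 4 rose and none fell, where 15.8% of all genes rose and 18.4% fell. Stat3 rose by 0.58 (SE 0.09, adjusted p 0.00166) and Tyk2, a receptor kinase, by 0.64 (SE 0.11, adjusted p 0.00240). Stat2 rose by 0.26 (SE 0.08, adjusted p 0.0282), and its adjusted p was 0.0727 to 0.123 on removal of replicate 1 or replicate 2 of either group. On removal of trametinib replicate 1 or of trametinib replicate 2, 2 genes of the list rose, where 9.33% and 10.5% of all genes rose.

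Of 8 transcription factors and coactivators, Irf1, Irf2 and Irf8 rose, none fell and 5 did not pass. Among all genes 15.8% rose and 18.4% fell. Irf1, which activates many interferon gamma targets, rose by 0.51 (SE 0.10, adjusted p 0.00427), and Irf8, a macrophage lineage factor, by 0.59 (SE 0.07, adjusted p 0.000755). Irf2, its relative, rose by 0.34 (SE 0.08, adjusted p 0.0107), and its adjusted p became 0.0553 on removal of trametinib replicate 1. For Nlrc5, a coactivator of class I histocompatibility genes, the log2 value was 0.16 and the adjusted p 0.125 (0.0484 with the replicate block). With the replicate block 6 of the list rose and 1, Batf2, fell, where 20.5% of all genes rose. In Ciita, the coactivator of class II genes, vehicle replicate 3 (158 CPM) was near the trametinib libraries (166 to 196 CPM) and above the other vehicle libraries (79.4 and 73.2 CPM).

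Among 6 brakes of this signalling 2 rose and 2 fell, where 15.8% of all genes rose and 18.4% fell. Removal of any 1 library other than vehicle replicate 3 left 1 riser, Pias1, where 9.33% to 14.6% of all genes rose. With the replicate block Usp18, which trims the interferon-induced modifier ISG15 from proteins, rose as well (adjusted p 0.143 without the block and 0.0163 with it). Socs3, an inhibitor of JAK kinases, fell by 1.55 (SE 0.29, adjusted p 0.00962) and the phosphatase gene Ptpn6 by 0.81 (SE 0.11, adjusted p 0.00104). Pias1, an inhibitor of STAT signalling, rose by 0.39 (SE 0.07, adjusted p 0.00378). Socs1, the inhibitor most tied to interferon gamma, was at a log2 value of 0.04 (SE 0.18, adjusted p 0.901), and its sign turned on removal of vehicle replicate 3 (−0.13) or of trametinib replicate 1 (−0.075).

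Effector loading on vacuoles needs the machinery that attaches ATG8 proteins to membranes. Of 14 tested genes of this machinery and of ubiquitin partners, 7 were called higher and 1 lower. Among all genes 15.8% rose and 18.4% fell. The median log2 fold change of the list was 0.22. Map1lc3a, an ATG8 gene, rose by 0.59 (SE 0.10, adjusted p 0.00325), Atg12 by 0.41 (SE 0.07, adjusted p 0.00343) and Map1lc3b by 0.34 (SE 0.07, adjusted p 0.00750). The member that fell was Atg16l1, which places the conjugation complex (log2 fold change −0.29, SE 0.07, adjusted p 0.00943). Its adjusted p became 0.0531 on removal of vehicle replicate 1 and 0.0522 on removal of trametinib replicate 1. Removal of replicate 1 or of replicate 2 in either group left 3 risers, where 9.33% to 10.5% of all genes rose. With the replicate block Gabarap, another ATG8 gene, rose as well (adjusted p 0.0831 without the block and 0.00748 with it).

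**Figure D4:**
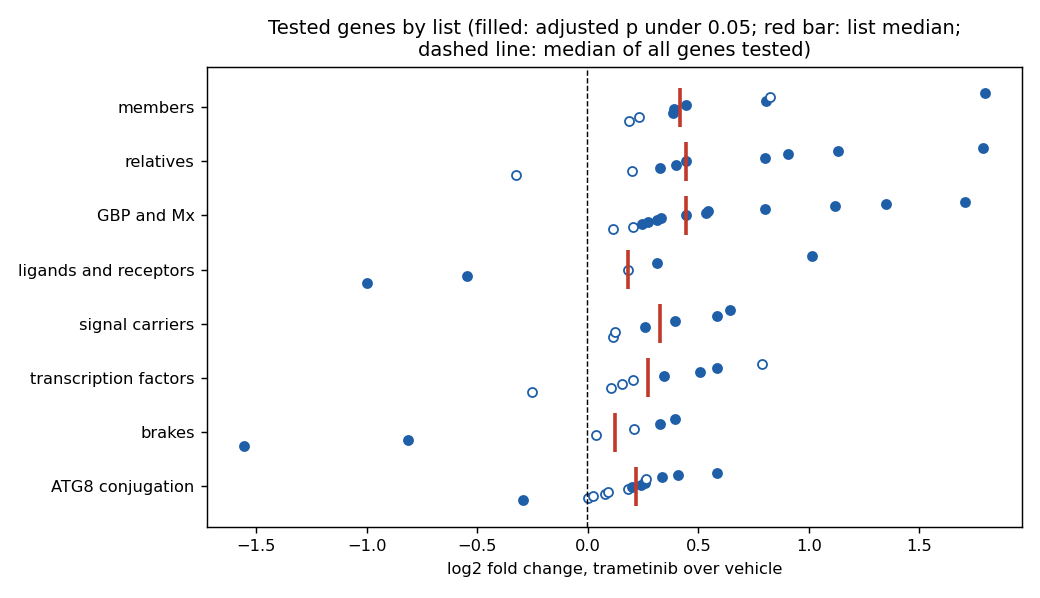
Log2 fold change of trametinib over vehicle (horizontal axis) for each tested gene, 1 row per list; filled points passed at an adjusted p under 0.05, red bars are list medians and the dashed line is the median of all genes tested (−0.01). The members' median is 0.42 and that of the guanylate-binding and Mx genes 0.45, while the receptor and brake lists hold points on both sides of 0.

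Over the 6 libraries, the mean scaled profile of the 8 members was most like those of Cnpy2, Tor1aip2, Ube2r2, Abhd12 and Ly86 among 8563 other genes of at least 5 CPM, with Pearson r of 0.996 to 0.999. These are descriptions over 6 points that share the treatment and the replicate structure. Each member's r with the mean of the others was 0.958 to 0.997 for Irgm1, Irgm2, Igtp, Iigp1 and Ifi47. It was 0.864, 0.778 and 0.813 for Tgtp1, Tgtp2 and Gvin1. They are the members that share most sequence with another gene. They also had the lowest levels, with vehicle means of 11.7, 89.7 and 21.8 CPM against 413 to 741 CPM for the other members. The part of shared sequence or of level in r was not tested.

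The libraries carried macrophage markers, with Lyz2 at 8836 to 10524 CPM. Of 7 macrophage markers Mertk rose, Adgre1 and Itgam fell and 4 did not pass, where 15.8% of all genes rose and 18.4% fell. The adjusted p of Itgam was 0.0437, and it became 0.0856 to 0.134 when any 1 library other than vehicle replicate 3 was removed. Of 8 markers of T and NK cells, the main makers of interferon gamma, 7 were under 1 CPM in every library. The exception was Cd4 (adjusted p 0.159, and 0.00691 with the replicate block), and the summed level of the list was 10.6 to 17.5 CPM with vehicle and 16.3 to 25.5 CPM with trametinib. B cell markers summed to at most 0.709 CPM, neutrophil markers to at most 7.84, eosinophil and mast cell markers to at most 1.88, dendritic cell markers to at most 3.92, and fibroblast and mesothelial markers to at most 2.78. Large resident peritoneal macrophage markers summed to 3.02 to 4.85 CPM with vehicle and 3.90 to 4.37 CPM with trametinib.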

How the data were processed

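The authors deposited 1 table of raw counts, whole numbers of reads per gene. The submitters' processing notes name mm10, the aligner HISAT2 2.1.0, the counter featureCounts 1.6.4, and R 3.6.0 with DESeq2 1.24.0. No source used here gives the annotation, the strand setting or how multi-mapped reads were handled. Of 25354 entries 310 repeats with identical values were dropped. Symbols, positions and merged exon lengths came from GENCODE M21, which held 25033 of the 25044 identifiers. Library totals were 17453778 to 19648467 counts.

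Samples were grouped by their labels. After filterByExpr and TMM scaling, genes were tested with edgeR 4.0.16 (robust quasi-likelihood, a group term alone, residual degrees of freedom 4), with Benjamini-Hochberg adjustment over 11286 genes. Each SE is the absolute log2 fold change over F's square root. CPM use TMM-scaled library sizes, and RPKM divides them by merged exon length. No replicate was a copy of another (chi-square per gene 6.26 to 29.8). Deviations from group means correlated at 0.339, 0.393 and 0.285 within replicate numbers and at −0.223 to −0.0724 across them. Because each group was centred on its own mean, positive values within numbers make those across them negative on balance. The values across numbers are therefore not a separate observation. The pairing by replicate number comes from the data and not the labels, so the replicate block was an alternative.

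The members and lists were chosen with earlier results of these data known. Named genes are the 8 members, the tested relatives, up to 3 genes of each other list with the smallest p, 8 fixed pathway genes, and the 5 most similar profiles; neighbours and any other gene were named after their values were seen. Alternatives were DESeq2 1.42.0 as a test and its size factors alone, TMM on genes other than mitochondrial ones and the 10 most abundant, no low-count filter, a minimum of 1 CPM in 3 libraries, limma-voom (limma 3.58.1), removal of each library, and the Tgtp1 and Tgtp2 counts summed. Sums of Igtp with Irgm2 and of Gvin1 with Gm4070 were added after seeing the data. Windows of 100 bases were compared on the sense strand of GENCODE transcripts. The test script was tested on simulated data. Scripts ran in R 4.3.3 and in Python 3.11.15 (pandas 2.3.3, NumPy 2.4.6, matplotlib 3.10.9). Protein features were not analysed here, and 1 gene of the signal carrier list is not reported by name.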

Additional observations from a re-analysis of the deposited data

How the results depend on the processing

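Leaving out 1 library at a time gave 2428 to 4663 genes changed, 1068 to 2210 higher and 1360 to 2453 lower, against 3869, 1787 and 2082. Removal of vehicle replicate 3 gave the highest of these counts and removal of trametinib replicate 1 the lowest. Members higher ranged from 3 to 6 and relatives higher from 6 to 8, with none lower in either. Guanylate-binding and Mx genes higher ranged from 7 to 11, ligands and receptors higher from 0 to 2, signal carriers higher from 2 to 5, transcription factors higher from 2 to 4 and lower from 0 to 1, brakes higher from 1 to 2, and ATG8 genes higher from 3 to 7 and lower from 0 to 1. The difference in the members' share of library counts ranged from 0.0703 to 0.109 percentage points, and that of Tgtp1 within Tgtp1 plus Tgtp2 from 15.7 to 18.2.

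With the replicate block 7 members, 7 relatives, 6 transcription factors and 12 guanylate-binding and Mx genes rose, where 20.5% of all genes rose. In that fit 1 transcription factor fell, as 1 did without the low-count filter. The block moved no other count of the lists by more than 1.5 times. For the 5 members that passed, the 7 alternatives that kept all libraries did not end a call.

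Signs of log2 fold changes near 0, or with a wide SE, turned for 5 genes outside the members, and the cause was not tested. With single libraries left out, 9930111J21Rik2 ranged from −0.64 to 0.51, Gbp2b from −0.076 to 0.25, Socs1 from −0.13 to 0.15 (−0.075 without trametinib replicate 1), Atg7 from −0.025 to 0.059 and Rabgef1 from −0.069 to 0.067 (0.047 and 0.0042 without vehicle replicate 1 and trametinib replicate 2). Rabgef1 was at 0.011 with DESeq2 size factors and with DESeq2, and at 0.0097 with the CPM filter.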
